A study of Saccharomyces cerevisiae with 4 samples.

Results

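The genes described here encode the factors that carry out peptide elongation in yeast, together with the initiation helicase eIF4A and the factor eIF5A. They are TEF1 (YPR080W) and TEF2 (YBR118W), TEF4 (YKL081W), EFT1 (YOR133W) and EFT2 (YDR385W), YEF3 (YLR249W) and HEF3 (YNL014W), TIF1 (YKR059W) and TIF2 (YJL138C), and HYP2 (YEL034W). The 10 genes were taken by name from a table of 7132 features. TEF1 and TEF2, EFT1 and EFT2, and TIF1 and TIF2 are near-identical copies, so the counts of each pair were summed, which left 7 quantities. Spores of the yeast Saccharomyces cerevisiae were sorted by red fluorescence, and polyadenylated RNA of each sort was sequenced to ask which transcripts differ between spores of opposite mating type. Red spores (a spores, labelled RFP_positive) carry mCherry, driven by the spore-autonomous GPD1 promoter, and the hygromycin resistance gene hph at MATa. Non-red spores (α spores, labelled RFP_negative) inherited the other MAT allele and lack the cassette. All spores came from an SK1-background diploid in which the copper-inducible CUP1 promoter drives IME1, the master regulator of meiotic entry, and were sorted after 7 days of sporulation at 30 °C. Sporulation and sorting were done in 2 independent experiments, each with a red and a non-red library, so there are 4 libraries, numbered here by experiment. A spore is a dormant haploid cell within a thick wall, and the sorts could still hold cells that had not sporulated.

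During elongation eEF1A, a GTPase encoded by TEF1 and TEF2, delivers aminoacyl-tRNA to the ribosome, and eEF1B, whose γ subunit is encoded by TEF4, recharges it with GTP. The GTPase eEF2, encoded by EFT1 and EFT2, moves the ribosome along the mRNA by a codon. Fungi require in addition eEF3, an ATPase that helps release spent tRNA from the ribosome. YEF3 is the main eEF3 gene of growing cells, and HEF3 is its paralog, known to be little expressed during vegetative growth. TIF1 and TIF2 encode eIF4A, the RNA helicase that prepares the 5′ end of mRNAs for ribosome binding. HYP2 encodes the eIF5A of aerobic cells, which helps ribosomes through stretches that stall, and ANB1 encodes the isoform known from cells short of oxygen.

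Whether the reads of paralogs can be told apart depends on their sequences. A 30-base stretch of each coding sequence is therefore shown for a near-identical pair and for more divergent ones. The bases that differ between the copies are in capitals. Each stretch is on the coding strand of the R64 reference, 5′ to 3′, and starts at the same base of both copies. Of the stretches that start at a codon, each was chosen as one with the most differences. TEF1 (chrXVI:701341-701370) and TEF2 (chrII:478418-478447) differ at 1 base of this stretch and at only 2 of 1377 coding bases, and their 458 residues are identical.
TEF1: gatgtttacaagatTggtggtattggtact
TEF2: gatgtttacaagatCggtggtattggtact
YEF3 (chrXII:636957-636986) and HEF3 (chrXIV:606496-606525) differ at 18 bases of this stretch and at 798 of 3135 coding bases.
YEF3: GACaaGAaGaCCgcTGCTaacGcCAtgCAA
HEF3: AGTaaACaAaAGgcGCTCaacAcGCtgGGT
HYP2 (chrV:86072-86101) and ANB1 (chrX:524956-524985, minus strand) differ at 6 bases of this stretch and at 43 of 474 coding bases.
HYP2: gaCttgatggtTacCatcatCtcCgcTatg
ANB1: gaTttgatggtCacTatcatTtcTgcCatg

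The share of 50-base words of a coding sequence that also occur elsewhere in the genome was 92.5% for TEF1 and TEF2, 91.9% for EFT1 and EFT2, and 84.9% for TIF1 and TIF2. With 150-base words the shares of these pairs were lower, at 81.9%, 74.8% and 63.2%. EFT1 and EFT2 differ at 4 of 2529 bases and TIF1 and TIF2 at 6 of 1188, and both pairs encode identical proteins of 842 and 395 residues. Counts of the single genes in these pairs are therefore uncertain, and only their sums are interpreted. For YEF3 and HEF3, which are identical at 83.8% of 1044 residues, no 50-base word occurred elsewhere, and their longest common run was 41 bases. By the reference sequence, exact reads of 50 bases or more from YEF3 and HEF3 can thus be told apart. Some counts of both genes were fractional all the same, and what led to this was not tested. No 50-base word of TEF4, HYP2 or ANB1 occurred elsewhere either. In the R64 annotation the coding sequences of the eEF1A pair lie at chrXVI:700594-701970 (TEF1) and chrII:477671-479047 (TEF2), and those of the eEF2 pair at chrXV:575098-577626 (EFT1) and chrIV:1243230-1245758 (EFT2). YEF3 lies at chrXII:636780-639914, HEF3 at chrXIV:606319-609453, TIF1 at chrXI:554987-556174 and HYP2 at chrV:85676-86149, all on the plus strand, and TIF2 lies on the minus strand at chrX:153504-154691. Of the members, TEF4 alone is spliced. Its coding exons lie at chrXI:282891-284455 around an intron of 326 bases that holds the small nucleolar RNA snR38. For snR38, 149 and 220 reads were listed in red and non-red spores of experiment 2, and none in experiment 1. This difference was not tested. All other members have a single coding exon.

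The deposited estimated counts were summed over all features to give the depth of each library, and both libraries of experiment 2 (27468051 and 25493760 reads) were shallower than both of experiment 1 (35937755 and 45697828). Abundance is given as normalized CPM, read counts scaled to library size with edgeR's TMM factors. The sort was checked on hph, which was at 1989 and 2415 CPM in red libraries and at 98.6 and 37.7 CPM in non-red libraries. It was the only feature past an FDR of 0.05 between red and non-red spores among the 6137 rows tested. The study's own edgeR analysis reported hph, mCherry, MATa1 and YAR064W at that threshold, and doubted YAR064W. Here mCherry was at 217 and 514 CPM in red libraries and at 12.5 and 0 CPM in non-red libraries. MATa1 was at 29.3 and 93.2 CPM in red libraries and at 0 and 8.46 CPM in non-red libraries. Both had an adjusted p of 0.116 in the edgeR likelihood ratio test. The 5 spore wall markers summed to 2856 and 3331 CPM in red and non-red spores of experiment 2. In experiment 1 their sums were 2234 and 2409 CPM. SPS100 made up most of each sum, and DIT1, DIT2, SPR3 and SMK1 were each at or below 70.6 CPM in every library. None of the 5 passed the test between experiments. The 7 markers of proliferating cells (CLN1, CLN2, CLB2, CTS1, DSE1, DSE2 and EGT2) summed to 494 and 379 CPM in red and non-red spores of experiment 2 and to 383 and 464 CPM in experiment 1. CTS1 was the largest part of each sum, at 290 and 220 CPM in experiment 2 and 191 and 207 CPM in experiment 1. None of these 7 was listed at 0 in any library and none passed the test, and their part in the results was not tested. With 2 libraries a group, p-values rest on a spread estimated across all genes. The 2 libraries of an experiment are sorts of the same sporulation. The p-values and SE between experiments therefore do not measure how much separate sporulations vary.

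The members covered a wide range of abundance in spores. All members together took 1.03% and 1.06% of reads in red and non-red spores of experiment 2, against 2.09% and 2.38% in experiment 1. Between genes, levels were compared as normalized CPM per kilobase of coding sequence, with a summed pair divided by the length of a single copy. On this scale the eEF1A pair TEF1+TEF2 had the highest level of the members, 6504 ± 2735 (SD, n = 4 libraries), and ranked between 5th and 15th of 5797 rows with a length. The eIF4A pair TIF1+TIF2 followed with 1364 ± 94.5 and ranked between 74th and 79th. YEF3 averaged 1088 ± 924 and the eEF2 pair EFT1+EFT2 709 ± 409, and over the 4 libraries YEF3 was not separated beyond its spread from EFT1+EFT2 or from TIF1+TIF2. The order below TEF1+TEF2 turned between experiments. In experiment 2 YEF3 was at 286 and 343 CPM per kilobase in red and non-red spores, below TIF1+TIF2 at 1284 and 1304, while EFT1+EFT2 was at 385 and 334. In experiment 1 YEF3 was at 1571 and 2151 CPM per kilobase, above TIF1+TIF2 at 1377 and 1493 and EFT1+EFT2 at 985 and 1132. HEF3 averaged 193 ± 131 and TEF4 110 ± 39.0 CPM per kilobase, within their spread over the 4 libraries, but their order turned as well. HEF3 was at 262 and 343 CPM per kilobase and TEF4 at 146 and 56.5 in experiment 2, whereas in experiment 1 HEF3 was at 99.5 and 67.5 and TEF4 at 131 and 107. HEF3 ranked between 464th and 2924th and TEF4 between 1333rd and 3383rd of the rows. For TEF1+TEF2, YEF3, EFT1+EFT2 and HEF3 most of the spread lay between the experiments.

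**Figure D1:**
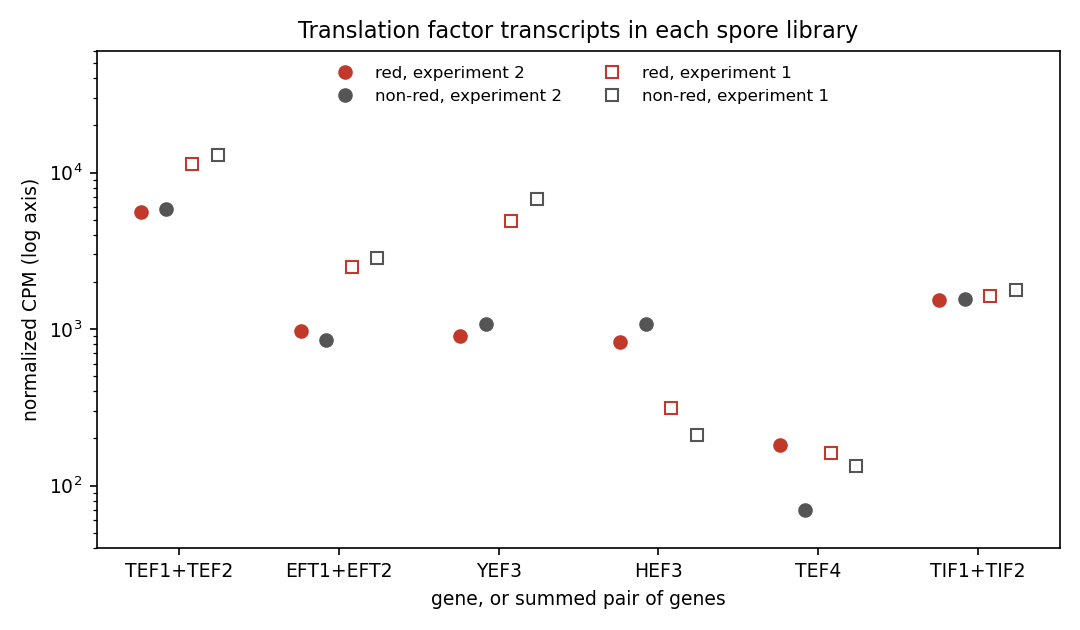
Normalized CPM (log axis) of the 6 quantities with reads, by library, with filled circles for experiment 2, open squares for experiment 1, red for red spores and gray for non-red spores. YEF3 falls between 897 and 1075 CPM in experiment 2 and between 4924 and 6743 CPM in experiment 1, whereas HEF3 falls between 821 and 1077 CPM in experiment 2 and between 212 and 312 CPM in experiment 1.

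The clearest pattern was between the 2 sporulation experiments, in which the eEF3 paralogs moved in opposite directions. YEF3 was at 897 and 1075 CPM in red and non-red spores of experiment 2, against 4924 and 6743 CPM in experiment 1. Both libraries of experiment 2 were below both of experiment 1. The log2 change was -2.55 ± 0.30 (SE), 5.87-fold lower in experiment 2, and the edgeR likelihood ratio test, adjusted over all rows, gave an adjusted p of 3.60e-14. HEF3 was at 821 and 1077 CPM in red and non-red spores of experiment 2, against 312 and 212 CPM in experiment 1. Here both libraries of experiment 2 were above both of experiment 1, by 1.87 ± 0.29 on the log2 scale (3.66-fold, adjusted p = 1.86e-08). Within each color the change kept its sign. For YEF3 it was -2.46 in red and -2.65 in non-red spores, and for HEF3 1.40 in red and 2.35 in non-red spores.

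HEF3 reads made up 47.8% of the YEF3 and HEF3 reads in red spores of experiment 2 (95% Wilson interval 47.3 to 48.2) and 50.04% in non-red spores (49.6 to 50.5). In experiment 1 the shares were 5.96% (5.85 to 6.07) in red spores and 3.04% (2.98 to 3.10) in non-red spores. In experiment 2 the paralogs were thus at nearly the same level, while in experiment 1 nearly all eEF3 reads came from YEF3. Since the genes have coding sequences of the same length, these shares also compare their levels per kilobase. The intervals cover counting error only. Both genes summed to 1718 and 2152 CPM in red and non-red spores of experiment 2, against 5236 and 6955 CPM in experiment 1. The summed CPM was thus lower in experiment 2 although HEF3 was higher.

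**Figure D2:**
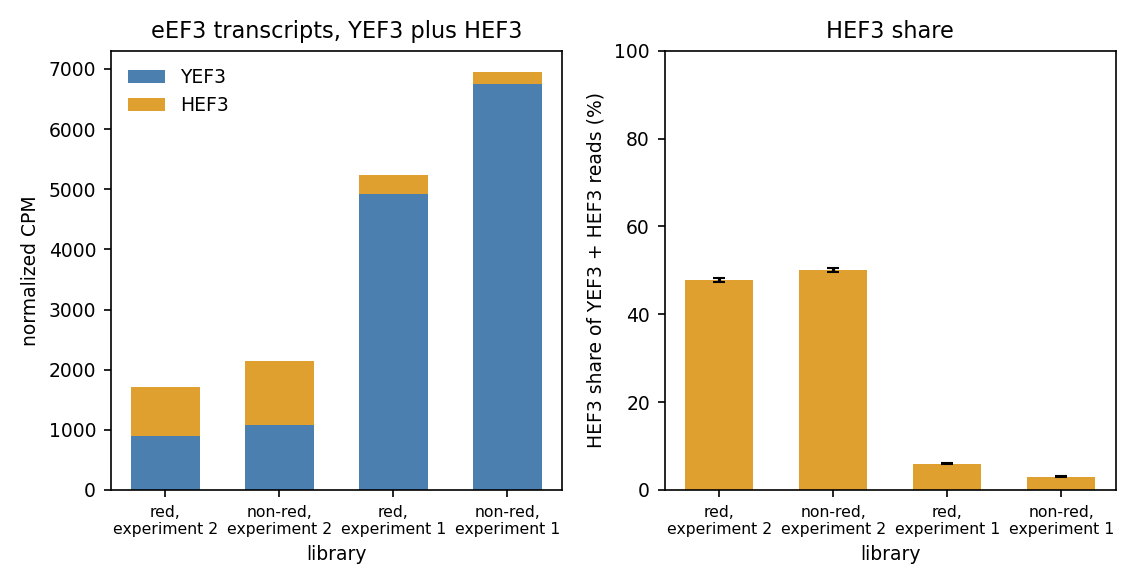
Left, normalized CPM of YEF3 (blue) and HEF3 (orange) stacked for each library; right, the HEF3 share of the reads of both genes in percent, with 95% Wilson intervals. The share is 47.8% and 50.04% in red and non-red spores of experiment 2, against 5.96% and 3.04% in experiment 1.

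The eEF1A and eEF2 pairs were also lower in experiment 2. TEF1+TEF2 was at 5613 and 5873 CPM in red and non-red spores of experiment 2, against 11385 and 12951 CPM in experiment 1. The groups did not overlap, and the log2 change was -1.08 ± 0.31 (SE, adjusted p = 0.00451), a 2.12-fold lower level. Leaving out the non-red library of experiment 1 left a single library in that experiment. The change was then -0.99 and did not pass the test. As separate rows TEF1 and TEF2 each changed by -1.08. EFT1+EFT2 was at 973 and 845 CPM in red and non-red spores of experiment 2, against 2491.5 and 2863 CPM in experiment 1. These groups did not overlap either, with a log2 change of -1.56 ± 0.29 (2.94-fold lower, adjusted p = 2.61e-06), and the change was -1.36 in red and -1.76 in non-red spores. As separate rows EFT1 changed by -1.66 and EFT2 by -1.44.

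The eIF4A pair and TEF4 did not pass the test between experiments. TIF1+TIF2 was at 1525 and 1549 CPM in red and non-red spores of experiment 2, against 1636 and 1773 CPM in experiment 1. The libraries of experiment 2 were below those of experiment 1, but the log2 change was only -0.15 ± 0.28 (adjusted p = 0.764). TEF4 was at 181 and 70.0 CPM in red and non-red spores of experiment 2, against 162 and 133 CPM in experiment 1. The groups overlapped, since the red library of experiment 2 was the highest of all and the non-red library the lowest. Its log2 change of -0.38 ± 0.35 (adjusted p = 0.486) depended on these libraries. Without the red library of experiment 2 it was -1.08 (adjusted p = 0.0252), and without the non-red library it was 0.29.

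Of the 6 quantities tested, 4 differed between experiments at an FDR of 0.05, with 1 higher and 3 lower in experiment 2. Among all 6137 rows 26.1% passed the same test, 12.2% higher and 13.9% lower. The median log2 change was -0.73 over the members and -0.02 over all rows. The libraries of the experiments did not overlap for 5 of the 6 members, and for 61.9% of all rows. The experiments were separate sporulation cultures and separate sorts, and what else differed between them, the depth included, cannot be told apart. In such bulk samples fewer cells of a type and less RNA per cell cannot be told apart either.

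**Figure D3:**
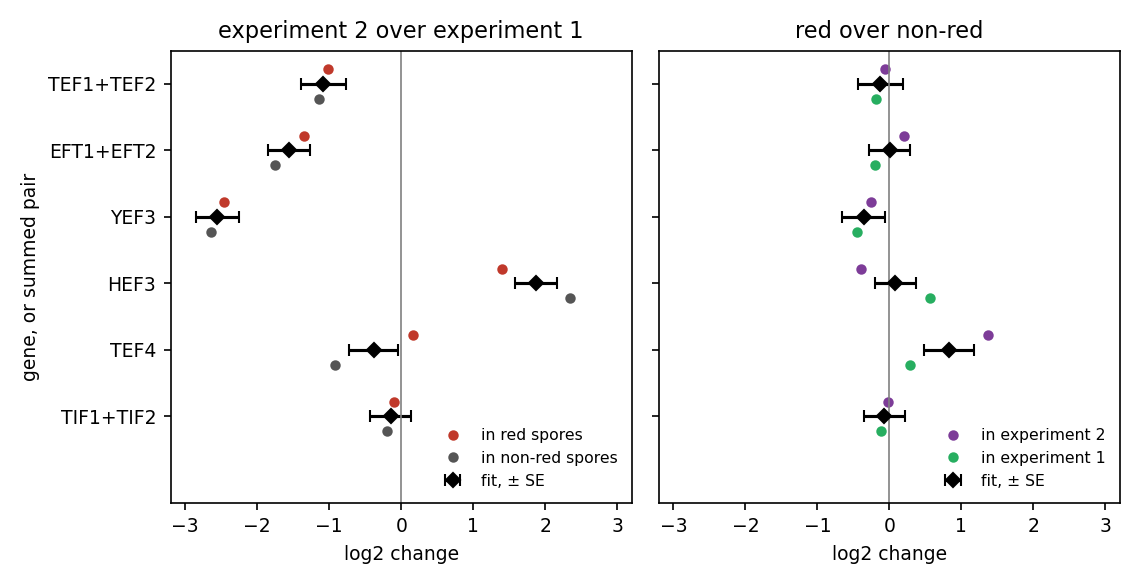
Log2 change of each gene or summed pair between experiments (left) and between red and non-red spores (right), with diamonds and bars for the fitted change ± SE and small points for the change within each color or experiment. Between experiments YEF3 is at -2.55 and HEF3 at 1.87, while between colors all fitted changes are between -0.36 and 0.83.

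Red and non-red spores were compared in the same model with the experiment as a block. None of the 6 quantities passed an FDR of 0.05, against 0.0163% of all rows, and 1 of them, TEF4, had an unadjusted p under 0.05. With DESeq2 1 of them passed. The same comparison of all rows gave 1 row in edgeR, with 279 at an unadjusted p under 0.05, and 218 in DESeq2. TEF4 was at 162 and 181 CPM in red spores of experiments 1 and 2, against 133 and 70.0 CPM in non-red spores. It was the only member whose colors did not overlap, as for 19.2% of all rows, and its log2 change was 0.83 ± 0.35 (adjusted p = 0.945). The change was 0.29 in experiment 1 and 1.37 in experiment 2, and the fitted change was 0.37 without the non-red library of experiment 2 and 1.28 without that of experiment 1. YEF3 had log2 changes of -0.45 in experiment 1 and -0.26 in experiment 2, with a fitted change of -0.36 ± 0.30 (adjusted p = 1). It was the member that passed in DESeq2, with -0.38 and an adjusted p of 0.0356.

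The other members had fitted changes between colors close to 0. TEF1+TEF2 changed by -0.13 ± 0.31 and TIF1+TIF2 by -0.07 ± 0.28. EFT1+EFT2 differed in sign between experiments, with log2 changes of 0.20 in experiment 2 and -0.20 in experiment 1. HEF3 also differed in sign, with -0.39 in experiment 2 and 0.56 in experiment 1, and its fitted change was 0.08 ± 0.29.

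HYP2 was listed at 0 in all 4 libraries, as were 104 of 6008 annotated coding genes (1.73%). HYP2 is an essential gene in growing cells, and a 0 in a table without stated counting rules can be a failed assignment, so the listing is not read as absence of the transcript. A feature of the same locus number on the other strand, YEL034C-A, was listed at 0 as well, while the neighboring YEL033W had between 1554 and 2325 reads. What led to the listing was not tested. The other eIF5A gene, ANB1, had 36.0 and 46.7 CPM in red and non-red spores of experiment 2, against 24.3 and 21.7 CPM in experiment 1. Both libraries of experiment 2 were above those of experiment 1, but the log2 change of 0.84 ± 0.62 did not pass the test (adjusted p = 0.371).

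Other genes of translation were read from 12 lists that together hold 58 genes, to set the members beside their partners. Of these 58, 14 (24.1%) differed between experiments, 3 higher and 11 lower in experiment 2, a share close to that of all rows. None differed between red and non-red spores, and 1 of them, EFM5, a methyltransferase of eEF1A, had an unadjusted p under 0.05 (log2 change -1.04, adjusted p = 0.789). CAF20, an eIF4E-binding protein, was at 0 in red spores of experiment 2 and between 14.1 and 21.3 CPM elsewhere, and is not discussed further.

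In the list of eEF1A cycle genes and eEF3 relatives, 2 of 3 were lower in experiment 2, against 13.9% of all rows. EFB1, the catalytic eEF1B subunit that exchanges GDP for GTP on eEF1A, was at 448 and 396 CPM in red and non-red spores of experiment 2, against 692 and 837 CPM in experiment 1 (log2 change -0.85 ± 0.26, adjusted p = 0.00579). NEW1, an ATPase related to eEF3, was at 182 and 206 CPM in experiment 2, against 436 and 499 CPM in experiment 1 (-1.27 ± 0.25, adjusted p = 7.43e-06). CAM1, which encodes the other eEF1Bγ and is the paralog of TEF4, was at 371 and 242 CPM in experiment 2, against 233 and 232 CPM in experiment 1, and did not pass the test (0.36 ± 0.27, adjusted p = 0.376). Of the enzymes that make hypusine, the modified lysine of eIF5A, LIA1 was at 29.8 and 47.4 CPM in experiment 2, against 125 and 167 CPM in experiment 1 (-1.95 ± 0.34, adjusted p = 8.05e-07). DYS1, which acts before LIA1, had a log2 change of -0.82 (adjusted p = 0.0504).

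Of the 7 genes around eIF4A in the eIF4F list, 3 were lower in experiment 2, against 13.9% of all rows, and 4 did not pass the test. TIF4631, an eIF4G scaffold, changed by -1.21 on the log2 scale (adjusted p = 7.94e-04). TIF3, which encodes eIF4B and stimulates eIF4A, changed by -1.06 (adjusted p = 3.10e-04), and the poly(A)-binding protein PAB1 by -0.71 (adjusted p = 0.0304). These 3 genes were lower while the other 4 of the list and the eIF4A pair itself did not pass the test. The difference between these changes was not tested. Of the helicases related to eIF4A, DBP1 was at 520 and 478 CPM in red and non-red spores of experiment 2, against 91.7 and 106 CPM in experiment 1 (log2 change 2.34 ± 0.26, adjusted p = 7.61e-16). Its paralog DED1, which opens structured 5′ leaders during scanning, was at 407 and 517 CPM in experiment 2, against 345 and 378 CPM in experiment 1 (0.34 ± 0.25, adjusted p = 0.344). Only DBP1 of this pair passed, and the difference between their changes was not tested.

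Of the 5 remaining initiation factors, 2 passed the test, in opposite directions, against 26.1% of all rows. SUI1, which encodes the start codon selection factor eIF1, was higher in experiment 2 (log2 change 0.98 ± 0.24, adjusted p = 6.52e-04). TIF5, which encodes the GTPase-activating factor eIF5, was lower (-1.29 ± 0.31, adjusted p = 3.49e-04). None of 8 genes of eIF2 and its exchange factor eIF2B passed the test, against 26.1% of all rows. Those with the smallest p were GCD11, the γ subunit of eIF2, with -0.61 (adjusted p = 0.0703), and GCN3, a regulatory subunit of eIF2B, with -1.08 (adjusted p = 0.114). Of 6 eIF3 genes, RPG1 (-1.27, adjusted p = 2.31e-05) and TIF34 (-1.51, adjusted p = 3.44e-06) were lower, against 13.9% of all rows.

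In termination and recycling, 2 of 5 genes passed the test, in opposite directions, against 26.1% of all rows. RLI1, an ATPase that splits ribosomes after termination, changed by -0.89 (adjusted p = 0.0137), and HBS1, a GTPase that acts on stalled ribosomes, by 0.91 (adjusted p = 0.0272). STM1, which protects idle ribosomes, was at 231 and 211 CPM in red and non-red spores of experiment 2, against 456 and 492 CPM in experiment 1 (-1.10 ± 0.25, adjusted p = 1.38e-04). LSO2, also linked to idle ribosomes, had a log2 change of 0.80 that did not pass (adjusted p = 0.292). None of the 6 genes for diphthamide, the modification of eEF2, passed, against 26.1% of all rows, with DPH2 (-0.77, adjusted p = 0.0624) nearest. None of the 7 methyltransferases of elongation factors and none of the 4 mitochondrial factors passed, against the same 26.1%. EFM4 (-0.91, adjusted p = 0.198) and MEF1 (-0.58, adjusted p = 0.190) were nearest.

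**Figure D4:**
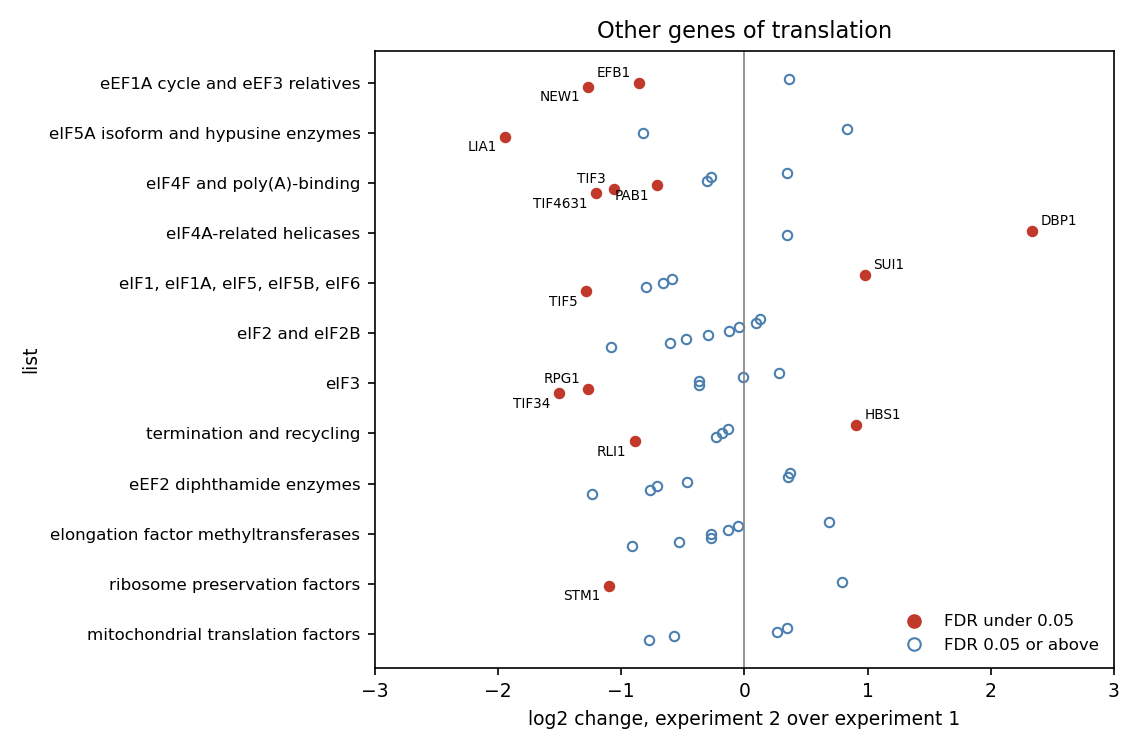
Log2 change between experiments for the genes of the 12 lists, CAF20 left out, a point for each gene and a line of points for each list, with filled red points for an FDR under 0.05. DBP1, SUI1 and HBS1 lie to the right, at 2.34, 0.98 and 0.91, and the 11 genes that were lower lie between -1.95 and -0.71.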

How the data were processed

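The authors sequenced RNA from 100 ng of total RNA per sort and aligned the reads with STAR 2.7.3a to the S288C reference R64, with the cassette genes added, although the cells were SK1. They counted reads per gene with featureCounts of Subread. The deposited values are estimated counts, 61.7 to 69.3% of the non-zero values of a library being fractional, and how strand and multi-mapping reads were handled is not given in the sources used here. Color was taken from the sample titles. The strain descriptions give MATalpha for both red libraries and for non-red library 2, and MATa for the other non-red library. Only the entry of non-red library 2 matches the mating types given above. Counts were rounded and pairs summed. edgeR 4.0.16 in R 4.3.3 was used with filterByExpr, TMM, a prior count of 0.125 and a likelihood ratio test with color and replicate number as terms, following the study's generalized linear model with batch, and Benjamini-Hochberg adjustment. The replicate number pairs libraries of the same sporulation, and their deviations from the color means had r = 0.54 over 6137 rows. The scripts were tested on simulated data. The members and lists were chosen with earlier results of these data known. All members were named; of each list, genes with an FDR under 0.05 (at most 5), otherwise at most the 2 with the smallest p, and always ANB1, CAM1, NEW1 and EFB1. DESeq2 1.42.0 and other filters, normalizations and blocks were alternatives. At these depths 3 counts correspond to 0.0681 to 0.116 CPM, counting error only.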

Additional observations from a re-analysis of the deposited data

How the results depend on the processing

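Between experiments, EFT1+EFT2 (log2 change -1.69 to -1.46), YEF3 (-2.80 to -2.33) and HEF3 (1.60 to 2.14) kept their direction and call in all 15, 16 and 16 alternatives, TEF1+TEF2 (-1.20 to -0.99) in 14 of 15, and TIF1+TIF2 passed in none. TEF4 ranged between -1.08 and 0.29 on leaving out a library. The members called numbered between 3 and 5 on leaving out a library, and the rows called between 832 (without non-red library 1) and 1607. DESeq2 called 2698 rows. Leaving out a library used a fit without the other term.

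Between red and non-red spores, no replicate block also gave 1 row, no replicate block with the quasi-likelihood test gave 0 (41 at an unadjusted p under 0.05), DESeq2 with the block gave 218, library totals only gave 5, and leaving out a library gave 2 to 29. DESeq2 called 1 member, YEF3. Signs turned for EFT1+EFT2 with DESeq2 (-0.018), RLE (-0.018) and no replicate block (-0.10 with either test), and for HEF3 with no replicate block (-0.19 with either test). On leaving out a library the changes ranged from -0.78 to 0.53 for TEF1+TEF2, -0.96 to 1.03 for EFT1+EFT2, -2.16 to 1.44 for YEF3, -1.05 to 1.42 for HEF3, 0.37 to 1.28 for TEF4 and -0.17 to 0.023 for TIF1+TIF2. A fit without 1 library compares unequal numbers of libraries from the experiments. Low depth limited no member with reads, and 4 libraries limit every test.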

Other observations

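HEF3 carries the synonym ZRG7, for zinc-regulated gene, so ZAP1 and the other genes with a symbol or synonym that begins ZRT or, for zinc-regulated genes, ZRG were read after the HEF3 values were seen. Of 15 such genes, 3 were higher in experiment 2, 1 was lower and 11 did not pass the test, with a median log2 change of 0.06. Among all rows 12.2% were higher and 13.9% lower, so the share called was near that of all rows. ZRT1, the high-affinity zinc transporter of the plasma membrane, was lower (-1.40, adjusted p = 8.04e-04 in edgeR). TSA1, a peroxiredoxin, was higher (1.02, adjusted p = 5.14e-04), as was DPP1, a lipid phosphatase (0.81, adjusted p = 0.0472). OYE3, an NADPH dehydrogenase, also passed, at 141 and 94.5 CPM in red and non-red spores of experiment 2, against 0 and 14.4 CPM in experiment 1. ZAP1, the zinc-responsive activator, did not pass the test (0.24, adjusted p = 0.708).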
